A study of Mus musculus with 2 samples.

Results

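Interferon-response endothelial cells of the mouse heart were taken as the endothelial barcodes that held UMIs (molecules counted once each) of at least 4 of 8 interferon-stimulated genes: Ifit1, Ifit2, Ifit3, Isg15, Oasl1, Usp18, Rsad2 and Cmpk2. A barcode, which stands for 1 droplet and usually 1 cell, was kept with at least 500 detected genes and at most 10% mitochondrial UMIs. It counted as endothelial when the UMI sum of Pecam1, Cdh5, Egfl7 and Cldn5 was at least 4 and above that of the fibroblast genes Pdgfra, Dcn, Col1a1 and Col3a1. This gave 1661 interferon-response barcodes among 6235 endothelial barcodes, 9092 kept barcodes and 10427 barcodes in all. The other 4574 endothelial barcodes were the class they were set against.

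The tested library came from db/db mice given 1% salt, named in the series' title as a model of HFpEF, the form of heart failure in which ejection fraction is preserved. The other library came from db/+ mice, with no treatment named. db/db mice carry a leptin receptor mutation on both gene copies and become obese and diabetic, while db/+ mice carry it on a single copy. Both libraries were made from digested hearts of males, 4 per genotype, with heart muscle cells filtered out and CD45-bearing leukocytes removed on magnetic beads. Their age and strain background are not stated. Each group is 1 library, so animals cannot be told apart, no difference between the groups has a replicate check, and no test was run. Genotype, salt and library cannot be told apart either. The intervals below are 95% and cover counting error only.

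Type I interferons bind the receptor IFNAR1 and IFNAR2, whose kinases JAK1 and TYK2 activate STAT proteins. With IRF9 these form the complex ISGF3, which binds interferon-stimulated response elements (ISREs) before antiviral genes such as the IFIT, OAS and MX families. Interferon gamma uses another receptor, acts through GAS elements, and is known for inducing GBP and IRG GTPases, CXCL9 and, through CIITA, MHC class II; many genes answer to both. Endothelial cells carry both receptors.

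The genes of the rule include ones with ISRE-like letters just before their start, and the stretches holding them are shown because the selection did not use sequence. They come from the RefSeq promoter table for GRCm38.p6 (300 bases a promoter, 250 before the start and 50 after it), and capitals mark every match to GAAA, any 2 bases and GAAA again, overlapping matches included. A match on the opposite strand reads TTTC, any 2 bases and TTTC. Each is printed 5′ to 3′ on the strand of the gene, as a 60-base window.
Isg15, chr4:156200856-156200915, minus strand: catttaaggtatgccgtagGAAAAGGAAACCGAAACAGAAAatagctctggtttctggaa
Rsad2, chr12:26456538-26456597, minus strand: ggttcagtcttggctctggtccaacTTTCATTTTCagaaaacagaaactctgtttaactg
Ifit3, chr19:34583365-34583424, plus strand: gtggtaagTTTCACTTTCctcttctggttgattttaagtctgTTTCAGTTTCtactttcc
Ifit3b, chr19:34607761-34607820, plus strand: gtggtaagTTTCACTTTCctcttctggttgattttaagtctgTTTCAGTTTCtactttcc
Ifit1, chr19:34640769-34640828, plus strand: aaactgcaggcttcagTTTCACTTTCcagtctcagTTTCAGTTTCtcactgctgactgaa
Isg15 held 3 overlapping matches, Ifit1, Ifit3 and Ifit3b 2 each and Rsad2 1. Ifit3 and Ifit3b, a gene outside the rule, were identical over 60 of 60 bases here, and as near-identical copies their UMIs may be split between them, so their single levels are uncertain.

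This ISRE-like motif, searched on both strands, was found in 3.44% of all 32851 promoters of the table and before 3.99% of its 27025 genes. It stood before 4 of the 7 rule genes that matched the table (57.1%), which are those shown, and not before Ifit2, Cmpk2 or Oasl1, while Usp18 had no match in the table. Of 40 other interferon-inducible genes 20 had it (50%), of 11 GBP and IRG GTPases with Cxcl9 9 (81.8%), of 17 genes of MHC class I and its peptide supply 5 (29.4%), and of 4 class II genes 0. The GAS-like letters TTCNNNGAA, searched on both strands the same way, stood before 9.55% of all genes, 1 of 7 rule genes, 4 of 40 other interferon-inducible genes and 6 of 11 of the GTPases and Cxcl9. These matches describe letters in a window and not binding.

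Interferon-response barcodes were a smaller share of endothelial barcodes in the db/db and salt library than in the db/+ library. They numbered 498 of 2833 in db/db and salt, or 17.6% (16.2 to 19.0%), against 1163 of 3402 in db/+, or 34.2% (32.6 to 35.8%), a log2 ratio of -0.96. The intervals (exact Clopper-Pearson, as for all shares) did not overlap. Fibroblast barcodes, a type outside the class, passed the same limit of 4 genes in 5.05% of db/db and salt barcodes (62 of 1227) and 9.77% of db/+ barcodes (137 of 1402), at median depths of 11993 and 9635.5 UMIs. The fibroblast share was thus lower in db/db and salt too, and both fibroblast shares were under the endothelial share of their library. How much free RNA gave of any of these shares was not tested.

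The rule asks for UMIs of 4 genes, and deeper barcodes passed it more often. Interferon-response barcodes had a median of 10885 UMIs in db/db and salt and 10830 in db/+, and the other endothelial barcodes 5266 and 4516. By depth, the share passing in db/db and salt was 3.95% under 2500 UMIs, 8.12% at 2500 to 5000, 15.7% at 5000 to 10000, 30.2% at 10000 to 20000 and 57.1% from 20000 UMIs. In db/+ it was 5.74, 17.5, 32.9, 60.6 and 86.5% in the same bins. The db/db and salt share was the lower in 5 of 5 bins, and the intervals overlapped only in the lowest bin.

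Thinned to 3000 UMIs a barcode, 151 of 2352 endothelial barcodes held 4 of the 8 genes in db/db and salt, or 6.42% (5.46 to 7.49%), against 435 of 2756 in db/+, or 15.8% (14.4 to 17.2%), a log2 ratio of -1.30. Thinning left out 481 and 646 shallower endothelial barcodes. Fibroblast barcodes at the same depth passed in 0.834% (10 of 1199) and 2.53% (34 of 1344). At 1500 UMIs the endothelial shares were 2.95% in db/db and salt and 6.49% in db/+. The difference between the libraries therefore stood at equal depth, while the share itself depends on the depth at which it is read.

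**Figure D1:**
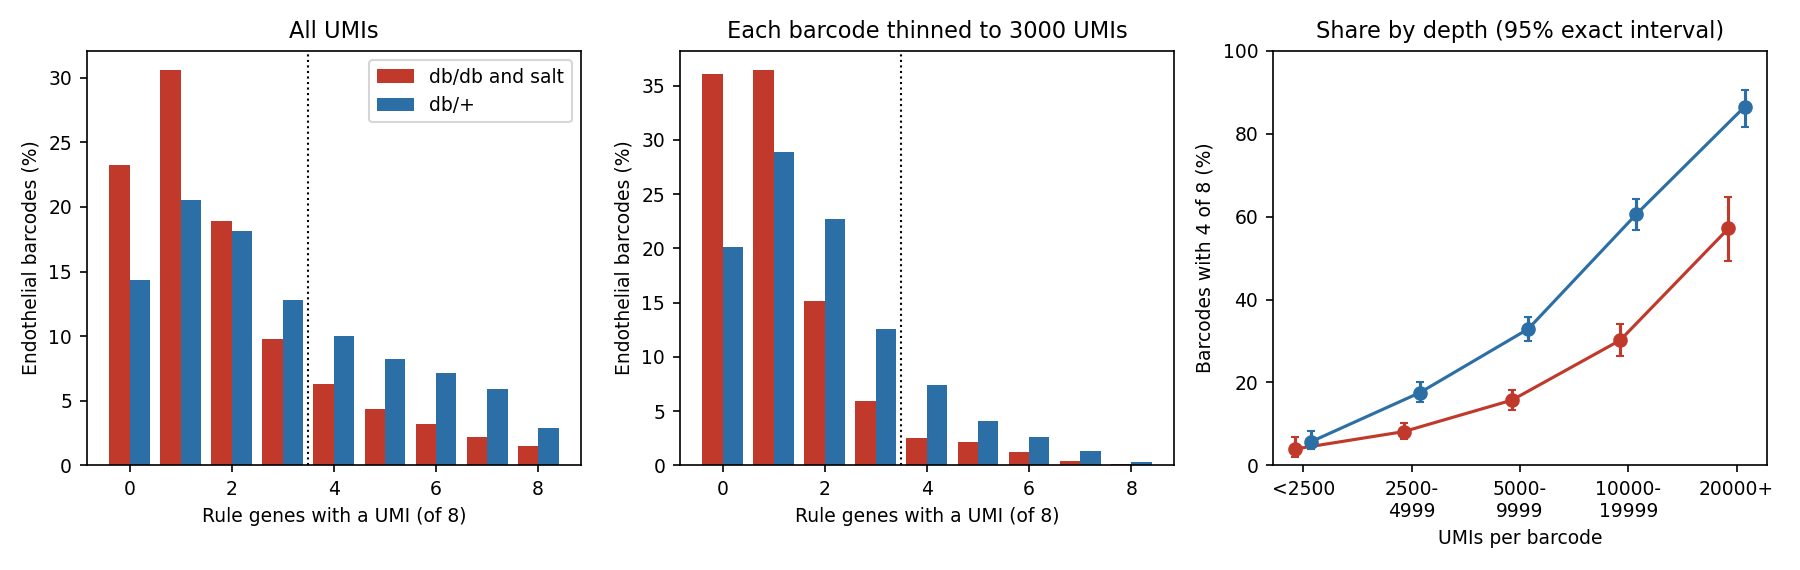
Left and middle: percent of endothelial barcodes (y) by the number of the 8 rule genes with a UMI (x), on all UMIs and after thinning to 3000 UMIs; the dotted line marks the limit of 4. Right: percent of endothelial barcodes with 4 of 8 (y) by UMIs per barcode (x), with exact 95% intervals. The db/db and salt library (red) has the larger share at 0 and 1 genes, and the smaller share past the limit in every depth bin, from 3.95 against 5.74% in the lowest to 57.1 against 86.5% in the highest.

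The number of rule genes per barcode had no gap at the limit. In db/db and salt 276 barcodes held 3 and 179 held 4, and in db/+ 436 held 3 and 340 held 4. All 8 genes were found in 42 barcodes of db/db and salt and 99 of db/+, and none in 658 and 487. Summed over barcodes, the 8 genes stood at 731 CPM (UMIs per 1000000 UMIs of the class) with 4 genes and 650.1 CPM with 3 in db/db and salt, and at 997 and 816 CPM in db/+. These genes chose the class, so this is a description of the rule. The 52 interferon-inducible genes outside it summed to 5580 CPM with 4 rule genes and 5239 CPM with 3 in db/db and salt, and to 7449 and 7083 CPM in db/+.

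The 8 genes that chose the barcodes are given as a description. Ifit1, an RNA-binding inhibitor of viral translation (ENSMUSG00000034459, chromosome 19, 34640871 to 34650009, GRCm38), was at 163 CPM (153 to 173, exact Poisson) in the interferon-response barcodes of db/db and salt and 13.5 CPM (11.8 to 15.4) in its other endothelial barcodes. In db/+ it was at 189.9 CPM (183 to 197) and 20.8 CPM (18.4 to 23.4). All ratios here are differences of log2(CPM + 10), a scale that makes the ratios of low genes too small. They were 2.88 in db/db and salt and 2.70 in db/+. Ifit3, of the same family, followed with ratios of 2.66 and 2.39.

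Isg15, a ubiquitin-like protein that is joined to other proteins (ENSMUSG00000035692, chromosome 4, 156199424 to 156200818), was at 192 CPM in interferon-response and 29.7 CPM in other barcodes of db/db and salt, and at 358 and 75.9 CPM in db/+. Usp18, the protease that removes it and dampens the receptor, was at 54.5 and 9.52 CPM in db/db and salt and at 71.3 and 13.9 CPM in db/+. Both were thus high in the class of either library. Oasl1, a member of the oligoadenylate synthetase family without synthetase activity, was the scarcest, at 25.8 and 1.35 CPM in db/db and salt and 27.1 and 2.09 CPM in db/+.

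Rsad2, the antiviral enzyme viperin, told the classes apart least. It was at 494 CPM in interferon-response and 257 CPM in other barcodes of db/db and salt (log2 ratio 0.92), and at 641 and 321 CPM in db/+ (0.98). A UMI of Rsad2 was found in 50.5% of the other endothelial barcodes of db/db and salt and 51.3% of those of db/+; how much of this free RNA gave was not tested. Cmpk2, its neighbour on chromosome 12 and a mitochondrial nucleotide kinase, had ratios of 1.56 and 1.60, and Ifit2 of 2.05 and 2.03.

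**Figure D2:**
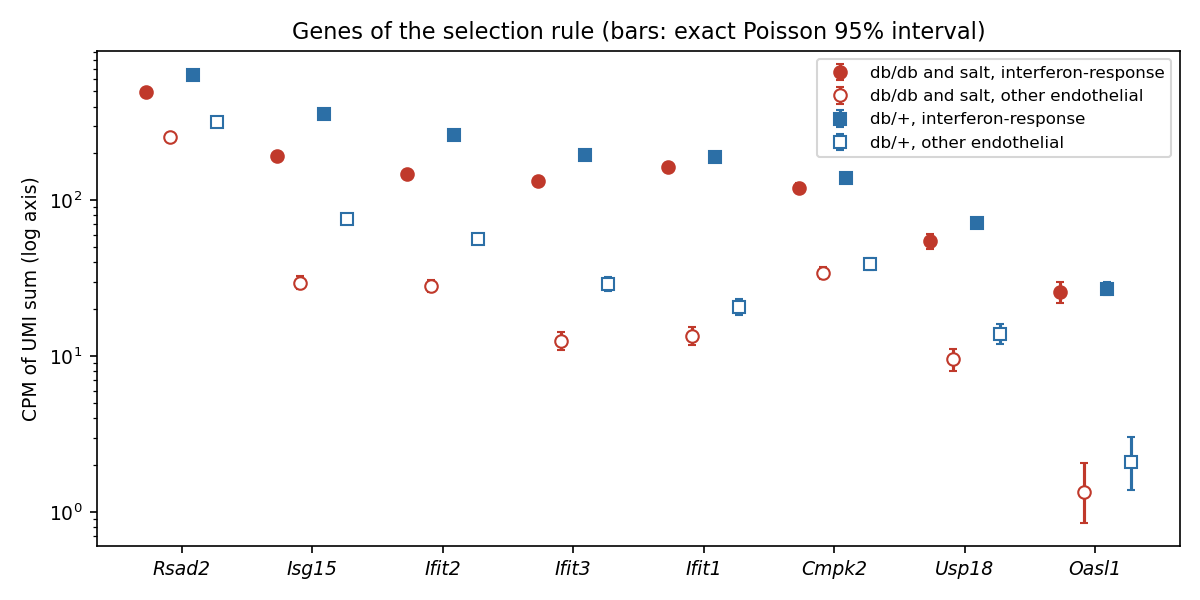
CPM of summed UMIs (y, log axis) for the 8 genes of the rule (x) in interferon-response (filled) and other endothelial (open) barcodes of db/db and salt (red circles) and db/+ (blue squares), with exact Poisson 95% intervals. The distance between filled and open symbols is smallest for Rsad2, at 494 against 257 CPM in db/db and salt, and Oasl1 is the lowest gene.

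Genes outside the rule were compared in the same barcodes. Because the barcodes were chosen on these libraries, this contrast is also a description. Outside the rule, 7 of 6521 genes with a mean of at least 20 CPM were at least 2-fold higher in interferon-response than in other endothelial barcodes of db/db and salt (0.107%), and 7 were lower (0.107%). In db/+ 6 of 6386 were higher (0.094%) and 5 lower (0.0783%). The higher genes of db/db and salt were Ifit3b, Ifi44, Irf7, Rtp4, Oasl2 and Iigp1, all known to be induced by interferons, and Lyz2. Of the Lyz2 UMIs in that class 98.1% came from 1 barcode. Those of db/+ were Cxcl10, Ifit3b, Ifi44, Ifi204, Zbp1 and Oasl2. Ifit3b, Ifi44 and Oasl2 were in both sets, and this short listing was made after the values were seen.

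Among 52 further interferon-inducible genes, 34 had the level needed in db/db and salt and 33 of these were above 0, with a median log2 ratio of 0.63 and 5 past 2-fold. In db/+ 37 had it and 36 were above 0, with a median of 0.54 and 4 past 2-fold. The median over all genes was 0.00 in both libraries. Ifi44, a cytoplasmic interferon-induced protein, was at 98.6 CPM (91.2 to 107) in interferon-response and 25.2 CPM (22.8 to 27.7) in other barcodes of db/db and salt, and at 148 and 51.8 CPM in db/+. Its ratios were 1.63 and 1.35.

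Oasl2, related to Oasl1, was at 77.4 and 27.1 CPM in db/db and salt (1.24) and 118 and 46.0 CPM in db/+ (1.19). Rtp4, a chaperone of receptors, was at 124 and 43.9 CPM (1.32) and at 161 and 83.7 CPM (0.87). Parp14, which attaches ADP-ribose, Slfn2, a schlafen protein, Rnf213, a large ubiquitin ligase, and Eif2ak2, the double-stranded RNA sensor PKR that halts translation, had ratios between 0.75 and 1.00 in db/db and salt and between 0.79 and 0.89 in db/+. At the other end Ifi27, despite its name, was at -0.01 in both libraries, and Ly6e, a membrane protein abundant in all these cells, at 0.22 and 0.12.

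The same genes were read with the class chosen at equal depth. In each endothelial barcode of at least 3000 UMIs, 3000 were drawn to choose the class, and the genes were measured in the UMIs that were not drawn. The class became smaller, at 151 barcodes of db/db and salt and 435 of db/+, or 30.3% and 37.4% of the class on all UMIs. The others then included 325 and 679 barcodes that were in the class on all UMIs. Held-out and all-UMI values thus compare different sets of barcodes. On these held-out UMIs the 52-gene list had a median log2 ratio of 1.03 in db/db and salt (36 measured, 21 past 2-fold) and 0.93 in db/+ (41 measured, 16 past 2-fold), larger than on all UMIs in both. Over all genes outside the rule 41 of 6492 were higher (0.632%) and 41 lower (0.632%) in db/db and salt, and 28 of 6390 were higher (0.438%) and 7 lower (0.11%) in db/+. The rule genes had medians of 2.42 and 2.06, with 8 of 8 past 2-fold in both.

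Of the genes higher on held-out UMIs, 36 of 41 in db/db and salt and 21 of 28 in db/+ belonged to the interferon and antigen lists used here. These lists were chosen with earlier results of these data known. Among all 6492 genes measured in db/db and salt, the 52-gene list had 36, the GTPases with Cxcl9 12 and MHC class I 19. In db/+ they had 41, 16 and 20 of 6390. The libraries shared 19 of the higher genes, which is 46.3% of the db/db and salt set and 67.9% of the db/+ set. The shared genes outside those lists were Isg20, an interferon-induced exonuclease, and Ifi208 and Mndal, both of the interferon-inducible Ifi200 family, and they were named after their values were seen. Without the barcodes that held any leukocyte marker UMI, 38 genes were higher (0.586%) and 37 lower (0.571%) in db/db and salt, and 30 higher (0.47%) and 6 lower (0.0939%) in db/+. Of these higher genes, 33 in db/db and salt and 23 in db/+ belonged to the same lists.

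**Figure D3:**
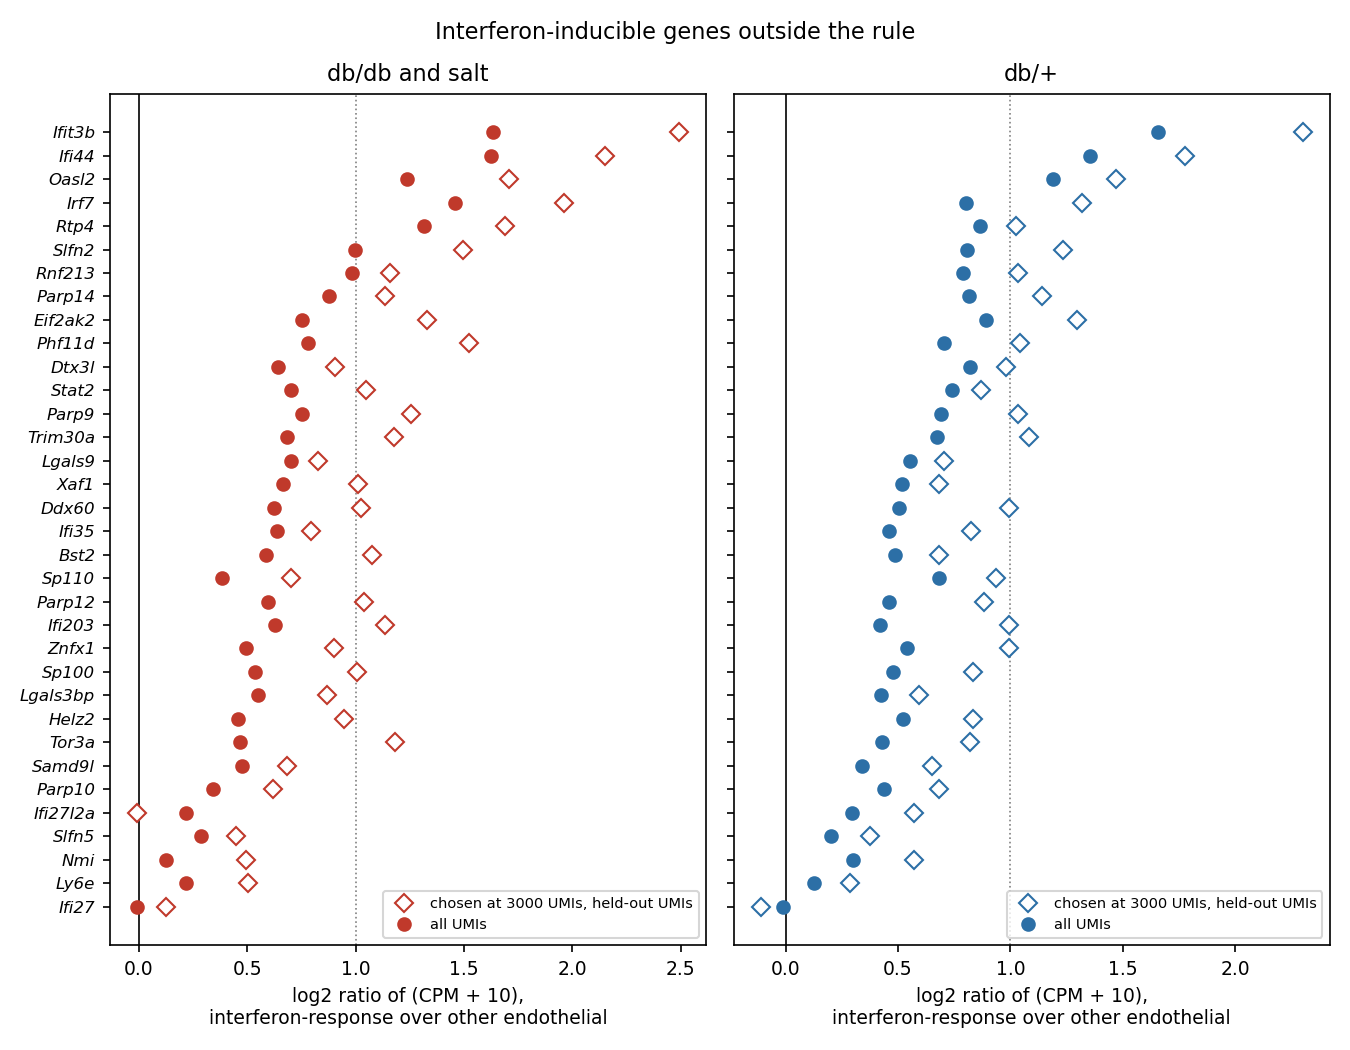
log2 ratio of (CPM + 10), interferon-response over other endothelial barcodes (x), for interferon-inducible genes outside the rule (y) in db/db and salt (left) and db/+ (right). Filled circles use all UMIs and open diamonds use held-out UMIs of barcodes chosen at 3000 UMIs; the dotted line marks 2-fold. Nearly all points lie right of 0, Ifit3b and Ifi44 lead, and Ifi27 lies near 0.

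The ligands that start the response were not detected. None of 21 interferon genes (Ifnb1, interferon alpha genes, Ifne, Ifnk, Ifng and interferon lambda genes among them) had a UMI in either endothelial class of either library. A count of 0 allows up to 3 UMIs for each gene, which is 0.452 CPM in the interferon-response barcodes of db/db and salt and 0.199 CPM in those of db/+. The receptor chains were at like levels in the class and outside it. Ifnar1 was at 72.7 CPM in interferon-response and 68.1 CPM in other barcodes of db/db and salt and at 57.5 and 56.8 CPM in db/+. Ifnar2, Ifngr1 and Ifngr2 had ratios between -0.06 and 0.15 over the libraries, and the kinases Jak1, Jak2 and Tyk2 between -0.01 and 0.12.

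Of the transcription factors downstream of the receptors, some were higher in the class and others near 0. Irf7, which amplifies the type I response, was at 100.1 CPM in interferon-response and 30.0 CPM in other barcodes of db/db and salt (1.46) and at 146 and 79.8 CPM in db/+ (0.80). Irf9, the DNA-binding part of ISGF3, had ratios of 0.83 and 0.49, and Stat2, another part of it, of 0.70 and 0.74. Irf3, which acts before interferon is made, was at -0.01 and -0.05, and Irf1, a target of interferon gamma, at 0.05 and 0.32. Over the 17 measured receptors, kinases, STATs and IRFs the median was 0.05 in db/db and salt, where Irf7 alone passed 2-fold, and 0.12 in db/+, where none did.

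Sensors of foreign nucleic acid were partly higher. The RNA helicases Ddx58 (RIG-I) and Ifih1 (MDA5) had ratios of 0.72 and 0.64 in db/db and salt and of 0.60 and 0.70 in db/+. Zbp1, a sensor of Z-form nucleic acid, was at 63.0 CPM in interferon-response and 21.1 CPM in other barcodes of db/+ (1.23), but in db/db and salt it had 22 UMIs in the class (3.32 CPM, 2.08 to 5.02) and 3 outside it. The signalling parts Mavs, Tbk1 and Tmem173 (STING) lay between -0.08 and 0.07 in both libraries. The enzymes that attach ISG15 stood between these: Herc6, the mouse ligase, was at 0.67 and 0.97, Ube2l6 at 0.44 and 0.56 and Uba7 at 0.28 and 0.28. Arih1, a ubiquitin ligase, was at -0.03 and -0.06.

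Genes best known as interferon gamma targets were also higher in the class, so these values do not separate a type I from a gamma response, and the barcodes are called interferon-response here without a type. Over the GBP and IRG GTPases with Cxcl9 the median ratio was 0.67 in db/db and salt (12 of 17 genes measured, 12 above 0) and 0.69 in db/+ (15 measured, 15 above 0). On held-out UMIs it was 1.26 and 0.86. Iigp1, an IRG GTPase that attacks the vacuoles of parasites, was at 214 CPM in interferon-response and 88.2 CPM in other barcodes of db/db and salt (1.19) and at 757 and 457 CPM in db/+ (0.71). Igtp, Irgm1 and Irgm2, of the same family, had ratios between 0.75 and 0.99 in db/db and salt and between 0.75 and 0.78 in db/+. Cxcl9, a chemokine for T cells, had 0.33 and 0.63.

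Endothelial barcodes with UMIs of at least 4 of 8 gamma-type genes (Iigp1, Igtp, Gbp4, Cxcl9, Irgm2, Ifi47, Tgtp1 and Gbp2) overlapped with the class. They were 49.6% of interferon-response barcodes (247 of 498) and 6.90% of other endothelial barcodes in db/db and salt, and 77.6% (903 of 1163) and 30.4% in db/+. Thinned to 3000 UMIs, the shares were 19.9% (13.8 to 27.1%) and 1.32% (0.884 to 1.89%) in db/db and salt, and 52.0% (47.1 to 56.7%) and 24.5% (22.7 to 26.3%) in db/+. The overlap was incomplete in both directions, since 161 gamma-type barcodes of db/db and salt and 680 of db/+ did not reach 4 of the 8 rule genes.

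In db/db and salt the barcodes of both kinds had 1406 CPM of the rule genes and 1469 CPM of the GTPases and Cxcl9. Those of the interferon-response class alone had 1207 and 992 CPM, the gamma-type alone 393 and 1185 CPM, and the 2174 barcodes of neither kind 385 and 626 CPM. In db/+ the same sums were 1946 and 4106 CPM in both kinds, 1482 and 1293 CPM in the interferon-response alone, 669 and 4193 CPM in the gamma-type alone, and 484 and 996 CPM in neither. The GTPase sums were in part fixed by the gamma-type rule, whose 8 genes they include. Depth enters both rules, and the median depths differed, at 14498, 8559, 12566 and 5092.5 UMIs in db/db and salt and 12705, 6467, 6116 and 4054 UMIs in db/+ in the order given.

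**Figure D4:**
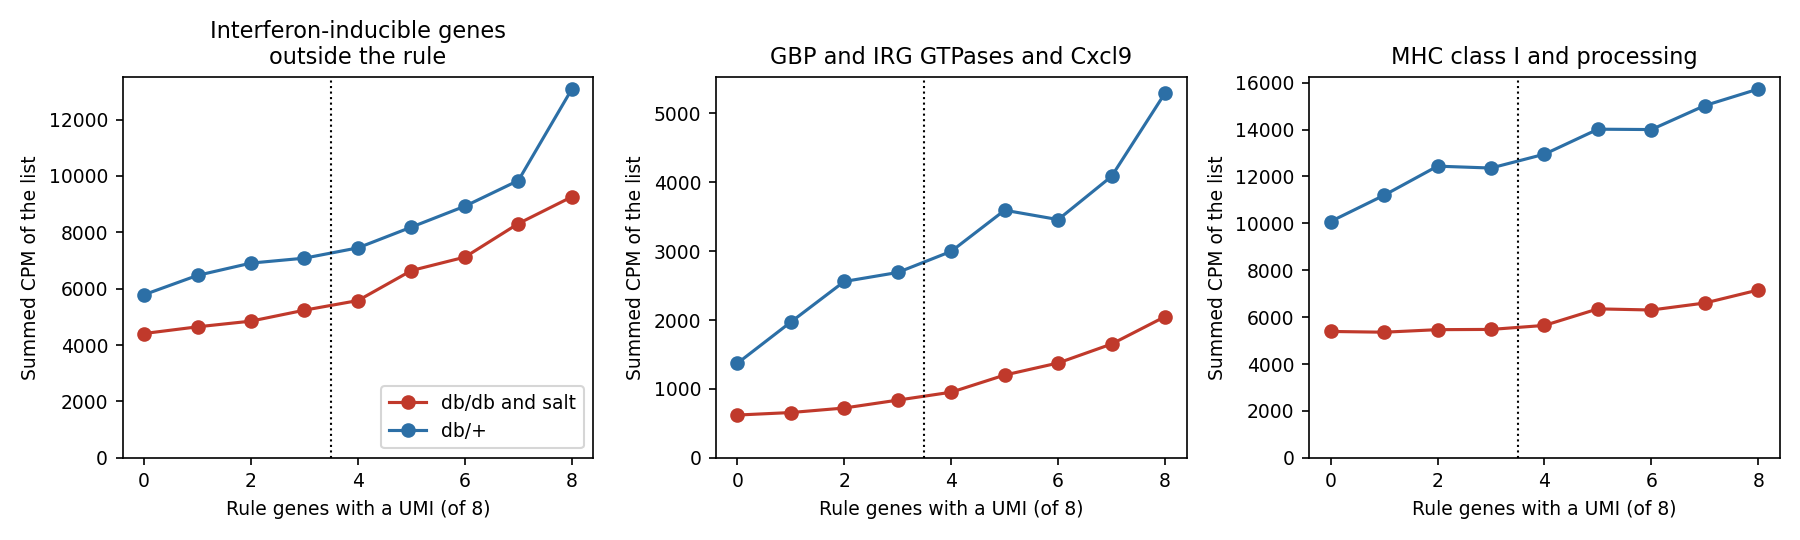
Summed CPM (y) of interferon-inducible genes outside the rule (left), GBP and IRG GTPases with Cxcl9 (middle) and MHC class I genes (right) by the number of rule genes with a UMI (x), for db/db and salt (red) and db/+ (blue); the dotted line marks the limit of 4. From 0 to 8 genes the left sum ran from 4410 to 9259 CPM in db/db and salt and from 5786 to 13082 CPM in db/+, with no step at the limit, and the middle and right sums of db/db and salt lie below those of db/+ at each number.

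MHC class I and its peptide supply were modestly higher in the class, with 19 of 19 measured genes above 0 in both libraries and medians of 0.18 in db/db and salt and 0.27 in db/+. Among them were Psmb8 (0.49 and 0.50) and Psmb9 (0.36 and 0.55), subunits of the immunoproteasome, and Tap1 (0.44 and 0.64), which carries peptides into the endoplasmic reticulum. MHC class II genes were near the lower limit in db/db and salt, where no gene of 7 had the level needed and the sum was 28.1 CPM in interferon-response and 23.7 CPM in other barcodes. In db/+ it was 534 and 391 CPM. Barcodes with at least 3 class II UMIs were 18.1% of the class and 7.95% of the others in db/+, but at 3000 UMIs 10.1% (7.45 to 13.3%) and 8.40% (7.30 to 9.60%), with overlapping intervals.

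Chemokines were modestly higher in the class by their medians but lower by their sums on all UMIs. Adhesion molecules were for the most part alike inside and outside the class. The chemokine and cytokine list had medians of 0.15 in db/db and salt (4 of 6 measured genes above 0) and 0.24 in db/+ (9 of 10). Summed, it was at 2088 CPM in interferon-response and 2447 CPM in other barcodes of db/db and salt, and at 2208 and 2464 CPM in db/+. On held-out UMIs the sums were 2142 and 2109 CPM in db/db and salt and 2384 and 2058 CPM in db/+. Cxcl10, a chemokine that answers to both interferon types, stood apart in db/+, at 69.5 CPM (65.3 to 73.8) in interferon-response and 10.6 CPM (8.88 to 12.5) in other barcodes. It was found in 122 interferon-response barcodes of db/+, and 1 of them gave 23.7% of the UMIs. In db/db and salt it was at 5.58 CPM (37 UMIs in 17 barcodes) and 1.17 CPM. Cd274 (PD-L1), which restrains T cells, had ratios of 0.44 and 0.62, while Vcam1 (0.12 and 0.03) and Icam1 (0.13 and 0.19), which hold leukocytes, were nearer to 0. The median of 8 measured adhesion genes was 0.02 and 0.01, and that of NF-kappaB targets 0.03 and 0.13. On held-out UMIs the adhesion median was 0.15 in db/db and salt (8 of 8 above 0) and 0.07 in db/+ (7 of 8).

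Endothelial identity was checked on 18 core genes that the rule did not use. All 18 were measured, with a median ratio of -0.04 in db/db and salt and -0.10 in db/+. Capillary markers such as Car4 (-0.06 and -0.11) and Cd36 (-0.01 and -0.13) were close to 0. On held-out UMIs the core genes had medians of 0.06 in db/db and salt and 0.03 in db/+. Capillary markers had held-out medians of 0.19 in db/db and salt (8 of 9 above 0) and 0.03 in db/+ (5 of 9). Arterial markers were lower in 10 of 10 measured genes in both libraries, with medians of -0.20 and -0.21, and on held-out UMIs of -0.37 and -0.30; none reached 2-fold. Fbln5, a matrix protein of arteries, had -0.24 and -0.70, and Gja4, a connexin, -0.46 and -0.14. Stress and immediate early genes had medians of 0.12 and 0.11.

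Genes that were lower in the class had part of their UMIs in few barcodes. Igfbp5, a binding protein of insulin-like growth factors, was at 179.8 CPM in interferon-response and 358 CPM in other barcodes of db/db and salt (-0.95) and at 86.0 and 239 CPM in db/+ (-1.38). An Igfbp5 UMI was held by 14.1% of the deeper interferon-response and 11.6% of other barcodes in db/db and salt, and by 10.7 and 7.55% in db/+. Among held-out UMIs of classes chosen at 3000 UMIs, the shares were 7.95 and 12.04% in db/db and salt and 6.21 and 9.18% in db/+. In db/db and salt 1 barcode gave 31.3% of the Igfbp5 UMIs of the class. Mgp, the inhibitor of calcification, had -0.81 and -0.88, and Cp, ceruloplasmin, -1.20 and -0.83. Fgl2, a fibrinogen-like protein, had -1.96 and -0.80.

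Markers of lymphatic endothelium and of endocardium, the lining of the heart chambers, were low in the class. Mmrn1, of lymphatic endothelium, had -1.58 and -1.02, and of its 89 UMIs in the class in db/db and salt 98.9% came from 1 of 2 barcodes. Npr3, of endocardium, was at 4.98 CPM in interferon-response and 36.5 CPM in other barcodes of db/db and salt and at 3.05 and 26.7 CPM in db/+. Summed, the endocardial list was at 52.2 and 149 CPM in db/db and salt and at 17.0 and 106 CPM in db/+. On held-out UMIs 6 genes were at least 2-fold lower in both libraries, Cp, Fgl2, Igfbp5, Mgp and Mmrn1 among them, and these 6 make up 14.6% of the db/db and salt set and 85.7% of the db/+ set.

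Proliferation markers differed in direction between all UMIs and held-out UMIs. On all UMIs they were higher in the class, with medians of 0.39 in db/db and salt (4 measured) and 0.79 in db/+ (6 measured), and on held-out UMIs lower, with -2.17 (3 measured) and -0.75 (6 measured). Barcodes with at least 3 of 8 proliferation genes were 2.21% of the class and 1.20% of the others in db/db and salt, and 7.22 and 2.41% in db/+. At 3000 UMIs they were 0 of 151 in the class (up to 2.41% by the exact interval) and 1.41% of the others in db/db and salt, and 2.99% (1.60 to 5.06%) and 3.62% (2.90 to 4.46%) in db/+. The higher values on all UMIs were not seen at equal depth. The classes chosen at equal depth are other sets of barcodes, and the part of depth in this difference was not tested.

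Transcripts of other cell types were counted in the same barcodes. Leukocyte markers summed to 73.6 CPM in interferon-response and 16.2 CPM in other barcodes of db/db and salt, and of the 488 UMIs in the class 437 (89.5%) came from 1 barcode. In db/+ they were at 7.30 and 6.64 CPM. Of 16 leukocyte markers 7 were at 0 in the class in db/db and salt, among them C1qa and C1qb of macrophages, and 6 in db/+. Without barcodes holding a leukocyte marker UMI, the held-out median of the 52-gene list was 1.03 in db/db and salt and 0.94 in db/+.

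Mural cell markers summed to 1439 and 1854 CPM in interferon-response and other barcodes of db/db and salt and to 1771 and 1629 CPM in db/+. On held-out UMIs mural markers were lower in the class of both libraries. They were at 706 and 2227 CPM in db/db and salt and at 1553 and 2146 CPM in db/+. On all UMIs fibroblast markers were at 189 and 267 CPM in db/db and salt and 117 and 182 CPM in db/+, and haemoglobin with other blood markers at 2023 and 2663 CPM and 3214 and 3582 CPM. Among genes lower on held-out UMIs in db/db and salt were the haemoglobins, the mural genes Rgs5, Acta2 and Myh11, and the cycle genes Mki67 and Top2a, a choice made after the values were seen. The part of these transcripts in the lower genes was not tested. A doublet caller marked 1 barcode among the other endothelial barcodes of each library and 0 in the class, out of 50 and 64 marked among all kept barcodes. It thus left unmarked the barcode of the db/db and salt class that held 437 leukocyte marker UMIs. Whether the class held doublets that the caller missed was not tested.

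Within the interferon-response barcodes the libraries were then compared. Of 3549 genes with a mean of at least 50 CPM, outside the rule, 28 were at least 1.5-fold higher (0.789%) and 68 lower (1.92%) in db/db and salt, relative to db/+. In the other endothelial barcodes 21 of 3526 were higher (0.596%) and 48 lower (1.36%). The median over all genes was 0.05 and 0.04. Of the rule genes, whose values here are conditioned on the rule itself, 7 of 7 measured were below 0 and 2 were lower by 1.5-fold or more, with a median of -0.37. Isg15 was at 192 CPM in db/db and salt and 358 CPM in db/+ (-0.87), and Ifit2 at 148 and 261 CPM (-0.78). Ifit1 (-0.21) and Cmpk2 (-0.19) were nearer to 0. Other groups were lower beside them within the class: the proliferation markers in 3 of 3 measured genes by 1.5-fold or more (median -1.002), with Mki67 at 53.1 CPM in db/db and salt and 112 CPM in db/+, and the haemoglobins and other blood markers in 4 of 4 (median -0.68). The part of cycling barcodes and of blood RNA in the other differences was not tested.

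The 52-gene interferon-inducible list was lower in db/db and salt in 30 of its 32 measured genes within the class, with a median of -0.35 and 3 lower by 1.5-fold or more. In the other endothelial barcodes the median was -0.37. Bst2, which tethers virus particles, was 1 of the 3, at 332 CPM in the class of db/db and salt and 1071 CPM in that of db/+ (-1.66), beside -1.76 outside the class. The GTPases and Cxcl9 were lower in 12 of 12 measured genes by at least 1.5-fold, with a median of -1.48, beside -1.53 over 10 genes outside the class. Cxcl9 was at 62.7 CPM in db/db and salt and 309 CPM in db/+ (-2.13), Igtp at 40.1 and 193 CPM (-2.02) and Iigp1 at 214 and 757 CPM (-1.77).

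Antigen presentation genes were among the lowest. Cd74, which guides class II molecules to their peptides, was at 9.80 CPM (7.57 to 12.5) in the interferon-response barcodes of db/db and salt and 254 CPM (246 to 263) in those of db/+, a log2 ratio of -3.74. Of its 65 UMIs in db/db and salt, 73.8% came from 1 barcode. H2-Ab1 (-2.90), a class II chain, H2-Q7 (-2.97) and H2-Q6 (-2.09), class I genes with near-identical relatives whose UMIs may be split, and Tap1 (-1.87) followed. Of 19 measured class I genes 16 were at least 1.5-fold lower, with a median of -1.05 in the class, beside -1.02 outside it. These lists were thus lower to a like degree within and outside the class, and the difference of the differences has no test here.

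Cyp26b1, which degrades retinoic acid, had the highest ratio under the rule for named genes. It was at 311 CPM (298 to 325) in the class of db/db and salt and 42.7 CPM (39.4 to 46.1) in that of db/+, a log2 ratio of 2.61, beside 3.16 in the other endothelial barcodes. It was found in 54.2% and 17.5% of interferon-response barcodes. Ocel1 (1.37), the matrix protein Fbln2 (1.12), the monooxygenase Fmo2 (1.12), Igfbp5 (0.98), Ccdc85b (0.97), Igfbp3 (0.97) and the growth factor Bmp6 (0.87) came next, with 1.53, 0.60, 0.58, 0.56, 1.02, 0.75 and 0.72 outside the class in that order. A large part of the Igfbp5 UMIs of the class in db/db and salt came from a single barcode, as given above. The Igfbp5 ratio without that barcode was not tested. On held-out UMIs 70 of 3515 genes were higher (1.99%) and 83 lower (2.36%) in the class of db/db and salt, with Cyp26b1 at 2.88 and Cd74 at -2.56. Cd74 had 40 held-out UMIs in the class of db/db and salt. Without leukocyte marker barcodes all class II genes there held 10 UMIs, so most of these Cd74 UMIs lay in leukocyte marker barcodes.

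**Figure D5:**
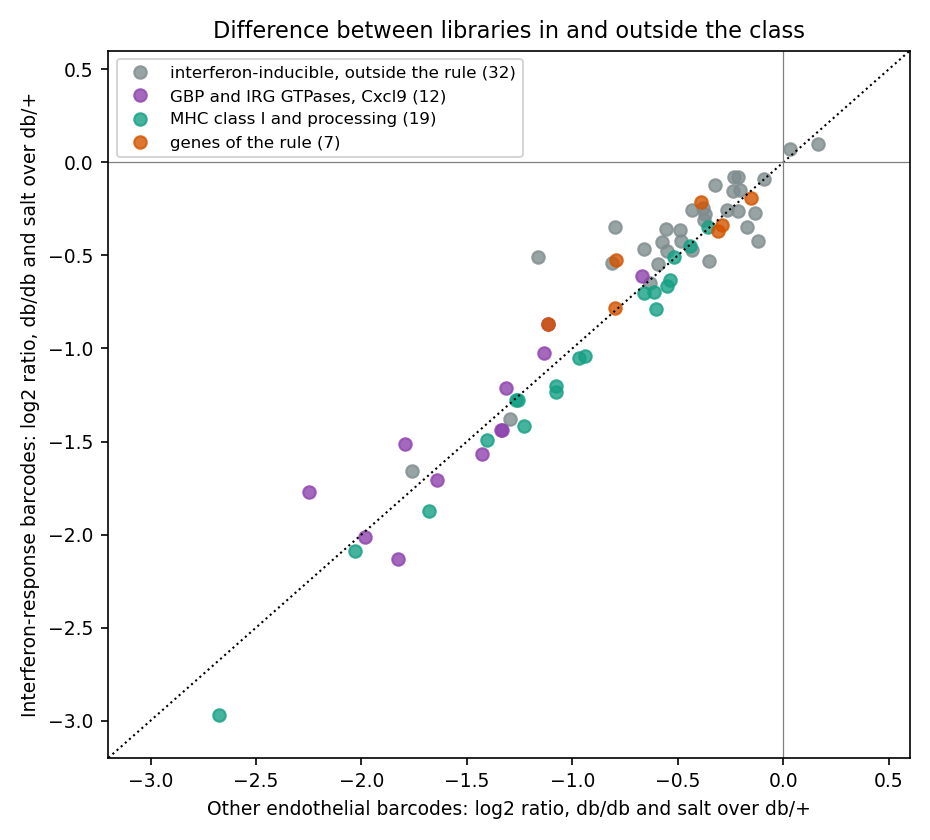
log2 ratio of (CPM + 10), db/db and salt over db/+, in interferon-response barcodes (y) against the same ratio in other endothelial barcodes (x), for genes with a mean of at least 50 CPM in the class, coloured by list; the dotted line marks equal ratios and the number of genes stands in the legend. The GTPases and Cxcl9 (purple) and MHC class I genes (green) reach below -1 on both axes, while most of the other interferon-inducible genes (grey) and the rule genes (orange) lie between 0 and -1.

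The libraries held 40974634 UMIs in db/db and salt and 44935235 in db/+. Of these, 6630487 and 15073901 lay in the interferon-response class and 16273824 and 12945643 in the other endothelial class. Some genes rest on few UMIs in the class of db/db and salt, as given above. The class of db/db and salt therefore has the wider counting intervals. The libraries shared 7 barcode sequences, 1 of them in the class of each library.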

How the data were processed

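Heart cells were profiled with the 10x 3′ v3.1 kit, per the labels' protocols, in 1 library per group. The deposited values are raw UMI counts for each gene in each barcode, written by Cell Ranger 6.0.2, per the file headers. GRCm38 and Seurat are also named, per the submitters' processing notes. How barcodes were filtered before deposit, and whether hearts were pooled, is not stated.

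The barcodes, genes and lists were chosen with earlier results of these data known. UMIs were summed per class and library as CPM (Python 3.11.15, numpy 2.4.6, scipy 1.17.1, pandas 2.3.3). Ratios are log2 with 10 CPM added; calls used 2-fold between classes (mean of at least 20 CPM) and 1.5-fold between libraries (50 CPM). List medians cover genes with that level. Symbols used for more than 1 gene (71 entries) were left out, and Mx2 and Cxcl11 were not in the gene table. Barcodes were thinned at random to 1500 or 3000 UMIs. Named genes were the 12 highest and 6 lowest in the class in both libraries, the 8 highest and 8 lowest between libraries (without rule, mitochondrial, ribosomal, haemoglobin and unnamed genes), the rule genes, up to 4 per list, and every interferon ligand, receptor, kinase, STAT or IRF with a UMI. Other settings were scored for direction and size, among them TMM scaling (edgeR 4.0.16, R 4.3.3) and Scrublet doublet calls (scanpy 1.11.5). The steps were tested on simulated data. Leukocyte-free sets and the held-out measurement were added after seeing the data. A few single genes are not reported here.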

Additional observations from a re-analysis of the deposited data

How the results depend on the processing

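Values were recomputed with 1 setting changed at a time where the setting applied to them; the held-out settings change the choice of barcodes and the UMIs measured together, and 1 of them also drops leukocyte marker barcodes. No paired analysis was possible because each group is 1 library. The log2 ratio of the shares was -0.78 with 3 of 8 rule genes asked for, -1.10 with 5, -1.21 with 6, -1.14 at 1500 UMIs and -1.30 at 3000, so it kept its direction in these. The share in db/db and salt was 27.3, 11.3 and 6.92% with 3, 5 and 6 genes and 2.95 and 6.42% at 1500 and 3000 UMIs; in db/+ it was 47.0, 24.2, 15.99, 6.49 and 15.8% in the same order, 36.8% at no more than 5% mitochondrial UMIs and 36.3% with an endothelial sum of at least 8. Median depth of the class in db/+ was 9614, 12125 and 13304 UMIs with 3, 5 and 6 genes and 12120 at 5% mitochondrial; that of the others was 4979, 5483 and 5600 in db/db and salt and 4145, 4841 and 5142 in db/+, and 4869.5 in db/+ with the endothelial sum of 8.

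Higher genes in db/db and salt at 2-fold were 12 with 5 of 8, 19 with 6 of 8, 1 at a mean of at least 100 CPM, 41 held out, 38 held out without leukocyte marker barcodes, 19 against barcodes with no rule UMI, and 13 and 0 with 1 and 50 CPM added. In db/+ they were 12 with 3 of 8, 11 with 6 of 8, 0 at 100 CPM, 28 and 30 held out, 56 against no rule UMI, and 11 and 0 with 1 and 50 CPM added. Lower genes in db/db and salt were 12 at 5% mitochondrial, 0 at 100 CPM, 41 and 37 held out, 13 with no filter, 25 against no rule UMI, 14 against others of like depth and 0 with 50 CPM added. In db/+ they were 9 with 3 of 8, 2 with 6 of 8, 14 at 5% mitochondrial, 1 at 100 CPM, 8 with no filter, 30 against no rule UMI, and 9 and 1 with 1 and 50 CPM added. Between libraries, 44 genes were higher with 6 of 8, 70 held out, 59 with no filter and 18 with 50 CPM added, and 42 were lower at 100 CPM and 166 with no filter. The cause of these moves was not tested.

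The median of the 52-gene list in db/db and salt was 0.79 and 0.86 with 5 and 6 of 8, 1.03 held out with and without leukocyte marker barcodes, 0.77 against no rule UMI and 0.44 with 50 CPM added; in db/+ it was 0.93, 0.94, 0.75 and 0.43 for the last 4. The GTPases with Cxcl9 had 1.02 at 100 CPM, 1.26 and 1.27 held out and 0.38 with 50 CPM added in db/db and salt, and 0.86, 0.86 and 1.26 held out, held out without leukocyte marker barcodes and against no rule UMI in db/+. Between libraries within the class, Hba-a1, Hba-a2, Hbb-bs and Hbb-bt turned, against -0.59, -0.67, -0.68 and -0.74 with 4 of 8, to 0.51, 0.36, 0.46 and 0.35 with 5 of 8 and 0.97, 0.80, 0.96 and 1.01 with 6 of 8. Lyz2 in db/db and salt, at 1.97 over the other barcodes, turned to -0.94 at 5% mitochondrial. With 1 library a group, counting intervals hold no spread between animals.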

Other observations

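Several metabolic and stress gene groups had medians near 0 between interferon-response and other endothelial barcodes. Fatty acid uptake genes had a median log2 ratio of 0.01 in db/db and salt and -0.01 in db/+ (9 measured in each), genes of the unfolded protein response -0.08 in both, and glycolysis genes 0.08 in both on all UMIs and -0.05 in both on held-out UMIs. Cell death genes had 0.01 in db/db and salt and 0.16 in db/+. Venous markers were lower, with medians of -0.36 in db/db and salt and -0.21 in db/+ and 4 of 5 measured genes below 0 in each. Vwf, the clotting protein von Willebrand factor, was at 53.6 CPM in interferon-response and 129 CPM in other barcodes of db/+ (-1.12). On held-out UMIs the venous medians were -0.40 in db/db and salt and -0.19 in db/+, with 4 of 5 measured genes below 0 in each. Bgn, the matrix protein biglycan, was the 1 venous marker past 2-fold there in db/db and salt, at 19.4 and 79.4 CPM (-1.61). In db/+ 0 of 5 passed 2-fold on held-out UMIs.

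Barcodes outside both classes also held the rule genes. Among kept barcodes that were neither endothelial nor fibroblast, 2 of 84 (2.38%) in db/db and salt and 7 of 144 (4.86%) in db/+ held 4 of 8. Among barcodes left out for few genes or a high mitochondrial share, 28 of 607 (4.61%) and 55 of 728 (7.55%) did.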
